A study of Homo sapiens with 6 samples.

Results

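The genes of the splicing factors, the heterogeneous nuclear ribonucleoproteins (hnRNPs) and the proteins of the small nuclear ribonucleoproteins (snRNPs) were examined in PANC-1 cells after METTL16 silencing. Members were taken by gene symbol alone, as the SRSF, HNRNP, SNRP, SNRNP, SF3A, SF3B, LSM and PRPF genes. The rule matched 116 gene names, of which 29 pseudogenes were left out, so that 87 of 58735 genes in the table were members. By role, 24 members encode hnRNPs, 12 SR proteins, 7 the Sm core, 6 proteins of or bound to the U1 snRNP, 11 the U2 snRNP, 8 the U4/U6 and U5 snRNPs, 3 the U11/U12 snRNP of the minor spliceosome, 7 the ring on U6 snRNA, 4 other LSM proteins and 5 other PRPF proteins.

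PANC-1 is an established human cell line from a carcinoma of the pancreatic duct. The study compared 3 samples that received control siRNA (si-NC) with 3 that received siRNA against METTL16 (si-METTL16), and a further label calls the control samples wild type. The study's methods call the sequenced cells stably transfected with these siRNAs. No time after transfection was given in the labels, all samples were of this one line and grew in the same serum-supplemented medium, and replicates were described as biological. The summed counts of the 6 libraries ranged from 15725298 to 18054436.

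Splicing removes introns from pre-mRNA. The U1 snRNP binds the 5' splice site, the U2 snRNP binds the branch site, and the U4/U6.U5 tri-snRNP joins before the spliceosome becomes active. In U1, U2, U4 and U5 snRNPs the RNA is encircled by a ring of Sm proteins, whereas U6 snRNA carries a ring of LSM2 to LSM8. SR proteins and hnRNPs bind exons and introns and shift the choice of splice site, often in opposite directions. METTL16 is a methyltransferase that places N6-methyladenosine on U6 snRNA and on the MAT2A transcript. The table gives one value per gene and holds no measure of splicing itself, of snRNA or of methylation.

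The targeted gene followed the labels. METTL16 had 1546, 1641 and 1764 counts in the si-NC samples and 571, 528 and 627 in the si-METTL16 samples, and fell by 1.48 ± 0.07 (SE) on the log2 scale (edgeR, adjusted p = 8.34e-05). Of the epithelial markers, KRT8 held 27490 to 43797 counts and KRT18 16244 to 24457 counts in the 6 libraries, whereas EPCAM had 98 to 209. KRT19 and KRT7 were lower after silencing, at 886 to 1520 against 2787 to 3737 counts and at 58 to 65 against 92 to 133 counts. PTPRC, PECAM1, PRSS1 and INS, which mark leukocytes, endothelium, acinar and beta cells, had at most 5 counts in any library. COL1A1, a collagen gene of fibroblasts, was not absent and had 5459 to 6337 counts in si-NC and 12679 to 15086 in si-METTL16 samples. All 10 proliferation markers on a list were higher after silencing, with a median log2 fold change of 1.07, and the part of cell cycling in the results that follow was not tested. In bulk RNA a change in the number of cells of one kind and a change in RNA per cell cannot be told apart.

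More members were higher than lower after METTL16 silencing. Of 82 members that passed the filter on low counts, 29 were higher, 9 were lower and 44 passed the threshold in neither direction (edgeR, adjusted p under 0.05 over all 15089 genes tested). Among all genes tested, 35.9% were called, 18.4% higher and 17.5% lower. Of the members, 35.4% were called higher and 9 of 82 lower. The members are abundant, and abundant genes are called more often. At or above a mean of 60.39 CPM (counts scaled to a common library size), the lower quartile of the members, 26.5% of all genes were called higher and 20.8% lower, against 41.0% and 11.5% of 61 members. In CPM, the lowest si-METTL16 value lay above the highest si-NC value for 39 members and the reverse held for 13, together 52 of 82, while the groups were apart for 50.9% of all genes tested.

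The changes were mostly small. The median log2 fold change was 0.21 over the tested members and -0.0045 over all genes tested, and 59 members had a positive and 23 a negative value. Members ranged from -0.65 to 1.16 on the log2 scale. Only SNRPA1 and HNRNPH3 reached a doubling, which is 2.44% of the tested members, against 9.85% of all genes tested with a change of at least 1 in either direction. The other 5 members were too low to be tested, namely SRSF12, with 0 to 16 counts, and HNRNPCL1 to HNRNPCL4, intronless relatives of HNRNPC, with 0 to 10 counts. HNRNPCL2 had 0 counts in all 6 libraries, which allows up to 0.1669 to 0.1924 CPM at these depths.

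**Figure D1:**
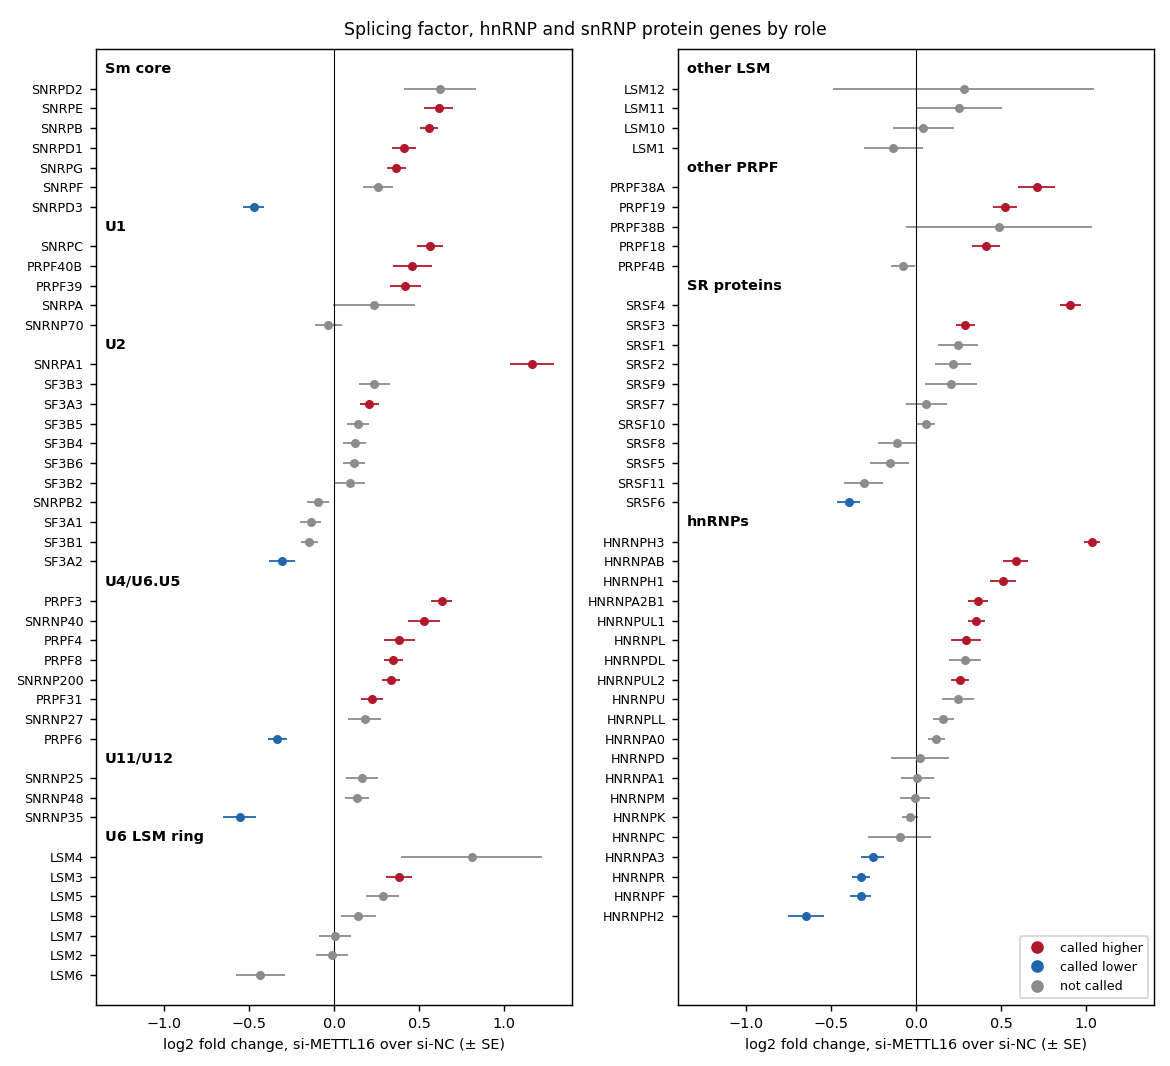
Log2 fold change of 81 tested members, si-METTL16 over si-NC, in 2 panels with members grouped by role and sorted within it. Points are edgeR estimates and bars are standard errors; red points were called higher, blue points lower and grey points in neither direction. Most red points lie between 0.2 and 0.7, and SNRPA1, HNRNPH3 and SRSF4 lie farthest to the right.

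The DNA around the transcription start is shown for the called members with the 2 highest and the 2 lowest log2 fold changes among those with a sequence. These are SNRPA1 and HNRNPH3, the members that at least doubled, and HNRNPH2 and SNRPD3, which fell. SNRNP35 fell more than SNRPD3, with a log2 fold change of -0.55, but had no sequence. The sequences come from RefSeq on GRCh38.p14, run 5' to 3' on the strand of the gene, and cover 250 bases before the start and the first 30 bases of the transcript. Capitals mark the E-box CACGTG, the palindrome that MYC and related factors bind. The windows are chr15:101295219-101295498 on the minus strand for SNRPA1, chr10:68331814-68332093 on the plus strand for HNRNPH3, chrX:101407972-101408251 on the plus strand for HNRNPH2 and chr22:24555749-24556028 on the plus strand for SNRPD3.
SNRPA1: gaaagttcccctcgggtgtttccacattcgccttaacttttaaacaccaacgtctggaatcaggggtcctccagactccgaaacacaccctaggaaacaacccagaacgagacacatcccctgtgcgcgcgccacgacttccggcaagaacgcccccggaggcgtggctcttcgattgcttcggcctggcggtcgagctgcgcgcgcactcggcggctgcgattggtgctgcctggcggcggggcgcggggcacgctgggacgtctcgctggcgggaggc
HNRNPH3: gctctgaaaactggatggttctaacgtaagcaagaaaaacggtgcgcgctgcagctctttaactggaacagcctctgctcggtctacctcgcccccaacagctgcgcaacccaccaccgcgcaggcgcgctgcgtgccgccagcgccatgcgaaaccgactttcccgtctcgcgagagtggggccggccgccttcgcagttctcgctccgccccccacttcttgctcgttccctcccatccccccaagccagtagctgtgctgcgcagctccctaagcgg
HNRNPH2: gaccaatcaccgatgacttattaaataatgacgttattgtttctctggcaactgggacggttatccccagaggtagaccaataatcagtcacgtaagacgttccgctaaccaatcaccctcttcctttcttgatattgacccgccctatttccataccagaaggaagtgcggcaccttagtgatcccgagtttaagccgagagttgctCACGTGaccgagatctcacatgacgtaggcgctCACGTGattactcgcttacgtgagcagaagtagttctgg
SNRPD3: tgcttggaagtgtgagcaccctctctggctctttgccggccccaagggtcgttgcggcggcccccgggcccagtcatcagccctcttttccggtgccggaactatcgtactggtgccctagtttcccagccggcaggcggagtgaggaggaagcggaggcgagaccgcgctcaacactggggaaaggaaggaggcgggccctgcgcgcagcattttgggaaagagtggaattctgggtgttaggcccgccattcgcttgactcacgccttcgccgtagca

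The HNRNPH2 window holds the E-box 2 times and has a GC content of 47.9%, whereas the other windows do not hold it and their GC contents are 64.6% in SNRPA1, 63.9% in HNRNPH3 and 63.6% in SNRPD3, so that the genes that fell differed in both. In windows that reach 50 bases past the start, 75 of 87 members had a sequence in the table, and 71 of these were tested members. CACGTG was present in 7 of the 71 (9.86%), against 10.3% of 9914 promoters of all genes tested. None of the 25 members called higher, 2 of the 8 called lower (HNRNPH2 and HNRNPA3) and 5 of the 38 called in neither direction held it. The E2F sites TTTCGCGC and TTTGGCGC, searched on both strands, were present in 1 of the 71 (SF3B1), against 2.08% of promoters of all genes tested. These matches describe letters in a window and no binding was measured.

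The Sm core moved unevenly. Its 7 proteins form the ring of the U1, U2, U4 and U5 snRNPs, and 4 of the genes rose, 1 fell and 2 passed in neither direction. Of all genes tested, 18.4% were called higher and 17.5% lower. These shares stand beside this and each later count by role or list. SNRPB (chr20:2461634-2470853) encodes the B subunit and had 3878, 4216 and 4220 counts in si-NC against 5812, 5375 and 6442 in si-METTL16 samples. All 3 silenced samples were above every control, and the log2 fold change was 0.56 ± 0.05 SE (adjusted p = 0.0004, edgeR). SNRPE, the E subunit, rose from 833, 926 and 879 to 1183, 1312 and 1431 counts (log2 fold change 0.61 ± 0.08, adjusted p = 0.00163). SNRPD1 and SNRPG rose by smaller amounts, with log2 fold changes of 0.41 ± 0.07 and 0.37 ± 0.06 (adjusted p = 0.00396 and 0.00288).

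SNRPD3 went the other way. This subunit pairs with SNRPB in the ring, and its gene (chr22:24555503-24609980) had 1618, 1711 and 1746 counts in si-NC against 1119, 1144 and 1293 in si-METTL16 samples (log2 fold change -0.47 ± 0.06, adjusted p = 0.00141, edgeR). The groups did not overlap. The ratio of SNRPB to SNRPD3 counts, a pair chosen after the values were seen, was 2.40 to 2.46 in the si-NC samples and 4.70 to 5.19 in the si-METTL16 samples. SNRPD2 had 974, 958 and 855 counts in the controls and 1507, 874 and 1850 after silencing (log2 fold change 0.62 ± 0.21, adjusted p = 0.0557, edgeR). Its second silenced library lay among the controls, and without that library the log2 fold change was 0.84 (adjusted p = 0.00325). With any other single library left out it was 0.45 to 0.66 (adjusted p = 0.104 to 0.155). With all 6 libraries SNRPD2 passed with the DESeq2 Wald test (log2 fold change 0.62, adjusted p = 0.0108) and in no other alternative. SNRPF had 1027, 1028 and 1178 against 1110, 1253 and 1390 counts (log2 fold change 0.26 ± 0.09, adjusted p = 0.0589, edgeR). Without the first silenced library its log2 fold change was 0.32 (adjusted p = 0.0304), an omission picked for mention after the values were seen.

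Of the 7 genes of the U6 ring, LSM3 rose and the other 6 did not pass the threshold with edgeR. LSM3 had 1231, 1340 and 1383 counts in si-NC and 1502, 1662 and 1844 in si-METTL16 samples (log2 fold change 0.38 ± 0.08, adjusted p = 0.00888, edgeR). LSM5 had 1048, 1217 and 1100 against 1355, 1331 and 1287 counts (0.29 ± 0.10 on the log2 scale, adjusted p = 0.0538). LSM6 had 228, 235 and 209 counts in the controls and 177, 159 and 146 after silencing, or -0.43 ± 0.14 on the log2 scale (adjusted p = 0.052). LSM5 and LSM6 both lay close to the threshold, LSM5 with overlapping groups and LSM6 with every silenced library below the controls. LSM6 passed it with limma on voom values (adjusted p = 0.048) and on log2(FPKM + 1) (adjusted p = 0.032) or log2(FPKM + 0.1) (adjusted p = 0.0325), and LSM5 with the DESeq2 Wald test (adjusted p = 0.049).

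LSM4 had the largest estimate and the widest spread of the ring. It had 1177, 510 and 502 counts in si-NC and 710, 1465 and 1575 in si-METTL16 samples, with 1 control library among the high values and 1 silenced library among the low ones (log2 fold change 0.81 ± 0.41, adjusted p = 0.17, edgeR). Without the first control library the log2 fold change was 1.35 (adjusted p = 0.0296), an omission picked for mention after the values were seen. LSM2, LSM7 and LSM8 had log2 fold changes of -0.01 ± 0.09, 0.01 ± 0.10 and 0.14 ± 0.10 (adjusted p = 0.941, 0.967 and 0.305), and the values of the groups overlapped in each.

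**Figure D2:**
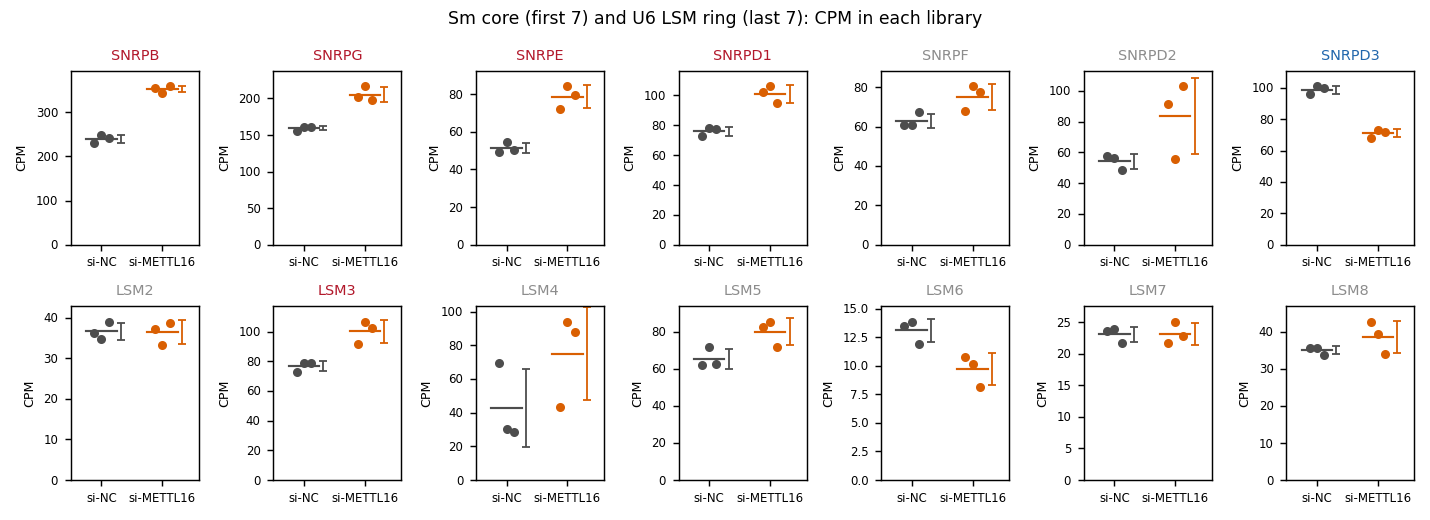
TMM-scaled CPM (vertical axes from 0) of the 7 Sm core genes (SNRP panels) and the 7 genes of the U6 ring (LSM panels) in each si-NC (dark) and si-METTL16 (orange) library, with the mean as a line and the SD as a bar beside the points, n = 3. Titles are red for genes called higher, blue for lower and grey for neither; the 3 orange points are above all dark points in SNRPB, SNRPG, SNRPE, SNRPD1, SNRPF and LSM3 and below them in SNRPD3 and LSM6.

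Of the U1 genes, 4 of 6 were higher and none was lower. SNRPC, which helps U1 hold the 5' splice site, had 1620, 1785 and 1649 counts in the si-NC samples and 2249, 2452 and 2564 in the si-METTL16 samples (log2 fold change 0.57 ± 0.08, adjusted p = 0.00159, edgeR). Its groups were well apart. PRPF39 and PRPF40B, relatives of U1-associated yeast proteins, had log2 fold changes of 0.42 and 0.46. PRPF40B was low, with 164 to 247 counts, and shares 28.0% of its exon bases with FMNL3 on the opposite strand, which itself rose by 1.48 on the log2 scale (adjusted p = 0.000836). PRPF39 shares 13.3% of its exon bases with FKBP3, which fell (log2 fold change -0.42, adjusted p = 0.0185). The use of strand in counting was not given, so reads of such pairs cannot be told apart. SNRNP70 and SNRPA, the other 2 proteins of the U1 particle itself, had log2 fold changes of -0.03 ± 0.08 and 0.23 ± 0.24 (adjusted p = 0.777 and 0.488).

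Among the U2 snRNP genes taken by symbol, a single gene stood out. Of these 11 genes, 18.2% were called higher and 9.09% lower, against 18.4% and 17.5% of all genes tested. SNRPA1 (chr15:101281510-101295282) encodes a protein that binds U2 snRNA together with SNRPB2, and its counts were 288, 349 and 387 in si-NC and 680, 779 and 763 in si-METTL16 samples. Every silenced value was above every control, and the change of 1.16 ± 0.13 on the log2 scale (adjusted p = 0.000651, edgeR) was the highest of all members. Its partner SNRPB2 had 1908, 2066 and 2031 against 1698, 1763 and 2004 counts (log2 fold change -0.10 ± 0.06, adjusted p = 0.282). The SF3A and SF3B genes taken by symbol, whose proteins hold the branch site, changed little. Of 9 such genes, SF3A3 rose (log2 fold change 0.21 ± 0.06, adjusted p = 0.025) and SF3A2 fell (-0.30 ± 0.08, adjusted p = 0.0198), and the call was lost in 7 of 14 alternative analyses for the first and in 4 of 14 for the second. SF3B5, the U2 gene with the highest deposited FPKM, had 1259, 1366 and 1392 counts in si-NC and 1470, 1321 and 1509 in si-METTL16 samples (log2 fold change 0.14 ± 0.07, adjusted p = 0.137). SF3B1, which contacts the branch site and had 11325 to 13611 counts, was lower in all 3 silenced samples but passed no threshold (log2 fold change -0.15 ± 0.05, adjusted p = 0.0575). PHF5A, an SF3B subunit outside the symbol rule, rose by 1.12 ± 0.08 on the log2 scale (adjusted p = 0.00018, edgeR).

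The tri-snRNP genes had the largest share of calls among the role groups of at least 6 genes. Of 8 genes 6 were higher, 1 was lower and 1 passed in neither direction. PRPF3, a U4/U6 protein, had 2120, 1903 and 2053 counts in the si-NC samples and 3038, 2770 and 3367 in the si-METTL16 samples (log2 fold change 0.63 ± 0.06, adjusted p = 0.000461, edgeR). Its U4/U6 partners PRPF4 and PRPF31 had log2 fold changes of 0.38 ± 0.09 and 0.23 ± 0.06 (adjusted p = 0.0151 and 0.0314). The call of PRPF31 was lost in 8 of 14 alternative analyses.

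PRPF8, SNRNP200 and SNRNP40, all of the U5 snRNP, were higher. SNRNP200, the helicase that unwinds U4 from U6, had 12067, 13221 and 13754 counts in si-NC and 15658, 15167 and 16919 in si-METTL16 samples, which is 0.33 ± 0.05 on the log2 scale (adjusted p = 0.00317, edgeR). PRPF8, the scaffold of the catalytic core, rose by a similar 0.35 ± 0.06 (adjusted p = 0.0031), and SNRNP40 by 0.53 ± 0.09 (adjusted p = 0.00466). PRPF6, which bridges U5 and U4/U6, was the one to fall, from 2986, 3161 and 3222 to 2298, 2270 and 2665 counts (log2 fold change -0.33 ± 0.05, adjusted p = 0.00333). None of its silenced values reached a control. The ratio of PRPF3 to PRPF6 counts, chosen after the values were seen, was 0.602 to 0.71 in si-NC and 1.22 to 1.32 in si-METTL16 samples.

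The minor spliceosome removes a small class of introns and uses U11 and U12 in place of U1 and U2. Of its 3 members, SNRNP35 fell, with 330, 346 and 360 counts in si-NC and 243, 201 and 242 in si-METTL16 samples (log2 fold change -0.55 ± 0.10, adjusted p = 0.00467, edgeR). The groups did not overlap. SNRNP35 shares 2063 of its 4693 exon bases with RILPL1 on the opposite strand, whose own log2 fold change was 0.14 (adjusted p = 0.628). SNRNP48 and SNRNP25 had log2 fold changes of 0.13 ± 0.07 and 0.16 ± 0.09 and did not pass (adjusted p = 0.174 and 0.215).

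The remaining PRPF genes act at several steps, and 3 of 5 were higher. PRPF38A, needed for activation of the spliceosome, had 1138, 1076 and 1115 counts in the si-NC samples and 1469, 1867 and 1942 in the si-METTL16 samples (log2 fold change 0.71 ± 0.11, adjusted p = 0.00272, edgeR). PRPF19, a ubiquitin ligase of the active spliceosome, rose from 1453, 1495 and 1473 to 1952, 2077 and 2129 counts (0.52 ± 0.07 on the log2 scale, adjusted p = 0.00138). PRPF18, a second-step factor, rose by 0.41 ± 0.08, and shares 14.9% of its exon bases with FRMD4A, which was not called. PRPF38B was irregular in both groups, with 1206, 419 and 390 counts against 601, 1450 and 649.

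None of the other LSM genes, LSM1, LSM10, LSM11 and LSM12, passed the threshold. LSM10, a ring protein of the U7 snRNP, which processes histone mRNA, had 598, 372 and 517 counts in si-NC and 461, 426 and 608 in si-METTL16 samples (log2 fold change 0.04 ± 0.18, adjusted p = 0.884, edgeR). LSM12 had 259, 60 and 306 counts against 316, 42 and 395, so that the second library was low in both groups.

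**Figure D3:**
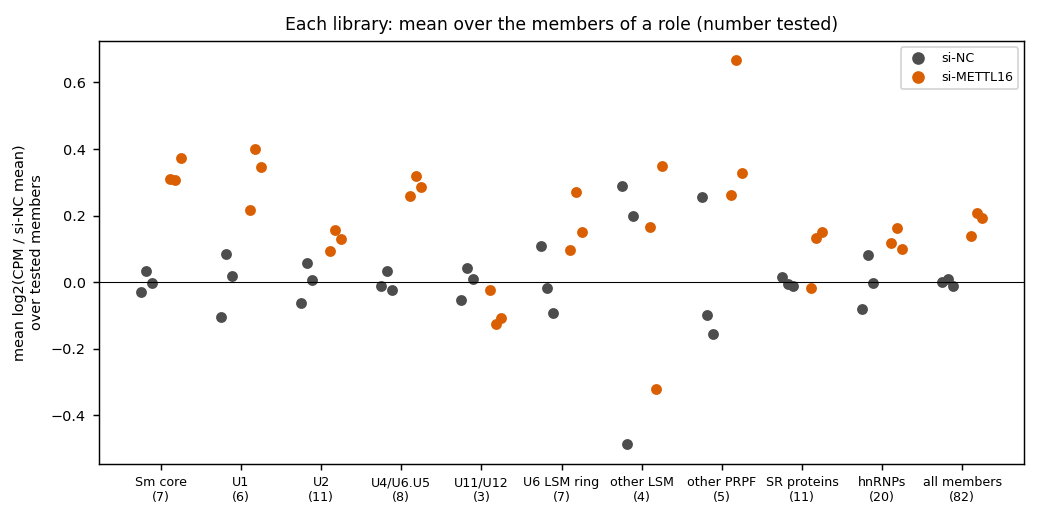
For each library, the mean over the tested members of a role of log2(CPM / si-NC mean), with the number of members in brackets; dark points are si-NC and orange points si-METTL16 libraries. The 3 orange points lie between 0.31 and 0.37 for the Sm core and between 0.26 and 0.32 for U4/U6.U5, whereas the other LSM genes spread from -0.49 to 0.35.

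SR proteins carry RNA-recognition domains and stretches of arginine and serine, and mostly promote the use of exons. Of 11 tested genes, 2 were higher and 1 was lower. These shares, 18.2% and 9.09%, did not exceed the 18.4% and 17.5% of all genes tested. SRSF4 (chr1:29147743-29181987) had 904, 960 and 979 counts in si-NC and 1729, 1661 and 1782 in si-METTL16 samples, or 0.91 ± 0.06 on the log2 scale (adjusted p = 0.000162, edgeR). The silenced libraries were tightly grouped and far above the controls. SRSF3 rose by less, 0.29 ± 0.06 on the same scale (adjusted p = 0.00686).

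SRSF6, close to SRSF4 in sequence and the SR gene with the highest deposited FPKM, fell. It had 4288, 3739 and 4098 counts in the si-NC samples and 2853, 2888 and 3196 in the si-METTL16 samples (log2 fold change -0.40 ± 0.07, adjusted p = 0.00393, edgeR). The ratio of SRSF4 to SRSF6 counts, a pair chosen after the values were seen, was 0.211 to 0.257 in si-NC and 0.558 to 0.606 in si-METTL16 samples. SRSF11 was lower in all 3 silenced samples without passing the threshold (log2 fold change -0.31 ± 0.11, adjusted p = 0.0688). SRSF1, SRSF2, SRSF5, SRSF7, SRSF8, SRSF9 and SRSF10 overlapped between groups, with log2 fold changes from -0.16 to 0.25.

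The hnRNPs coat nascent transcripts and many silence exons. Of 20 tested genes, 7 were higher, 4 were lower and 9 passed in neither direction. The shares were 35% higher and 20% lower, against 18.4% and 17.5% of all genes tested. The HNRNPH/F genes, whose proteins bind runs of G, split. HNRNPH3 (chr10:68331174-68343191) had 3426, 3497 and 3567 counts in si-NC and 6987, 6462 and 7377 in si-METTL16 samples (log2 fold change 1.03 ± 0.05, adjusted p = 8.34e-05, edgeR). HNRNPH1 also rose, from 2363, 2777 and 2620 to 3680, 3390 and 3644 counts (log2 fold change 0.51 ± 0.08, adjusted p = 0.00231).

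HNRNPH2 (chrX:101408295-101414133) and HNRNPF fell. HNRNPH2 had 7503, 6880 and 7069 counts in the si-NC samples and 4900, 4264 and 4073 in the si-METTL16 samples (log2 fold change -0.65 ± 0.10, adjusted p = 0.0031, edgeR), the lowest estimate of all members. Its groups were far apart. HNRNPH2 shares 15.8% of its exon bases with RPL36A-HNRNPH2 on the same strand, which held 2352 counts over all libraries. Reads of the shared part cannot be told apart. HNRNPF had 7502, 7297 and 7273 against 6012, 5237 and 5835 counts (log2 fold change -0.33 ± 0.06, adjusted p = 0.00645). The ratio of HNRNPH3 to HNRNPH2 counts, chosen after the values were seen, was 0.457 to 0.508 in si-NC and 1.43 to 1.81 in si-METTL16 samples, so that the order of these genes by count turned over in every silenced library.

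**Figure D4:**
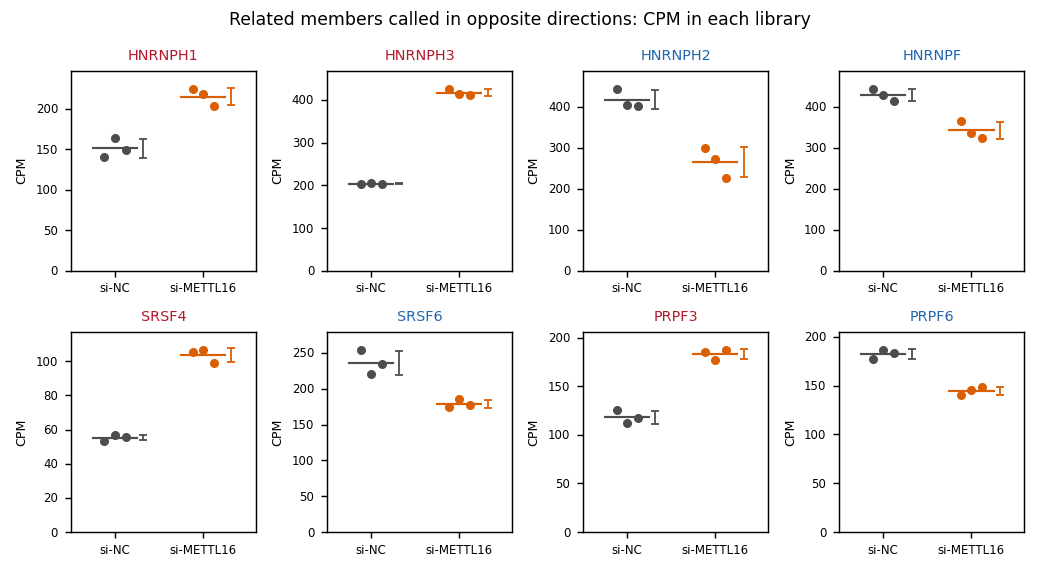
TMM-scaled CPM (vertical axes from 0) in each si-NC (dark) and si-METTL16 (orange) library of related members called in opposite directions, with the mean as a line and the SD as a bar beside the points, n = 3. Red titles mark HNRNPH1, HNRNPH3, SRSF4 and PRPF3, in which every orange point is above the dark points, and blue titles mark HNRNPH2, HNRNPF, SRSF6 and PRPF6, in which every orange point is below them; the members were picked for this display after their values were seen.

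Among the other hnRNPs, HNRNPAB, a binder of RNA and single-stranded DNA, had 4402, 5273 and 4933 counts in si-NC and 6927, 6519 and 7880 in si-METTL16 samples (log2 fold change 0.58 ± 0.07, adjusted p = 0.00109, edgeR). HNRNPA2B1, HNRNPUL1, HNRNPL and HNRNPUL2 rose by 0.26 to 0.36 on the log2 scale. HNRNPA2B1 held the most counts of any member, with 23596, 26823 and 27837 in the controls and 31649, 30953 and 35105 after silencing. HNRNPAB shares 9.25% of its exon bases with PHYKPL and HNRNPA2B1 9.57% with NFE2L3. Both partners lie on the opposite strand and were called lower (log2 fold changes -0.88 and -1.10). HNRNPUL2 shares 44.3% of its exon bases with HNRNPUL2-BSCL2 on the same strand, which held 880 counts over all libraries. Reads of that shared part cannot be told apart. The call of HNRNPL was lost in 7 of 14 alternative analyses.

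HNRNPR and HNRNPA3 were the other genes to fall. HNRNPR had 6852, 7393 and 7222 counts in the si-NC samples and 5551, 5082 and 6031 in the si-METTL16 samples (log2 fold change -0.33 ± 0.05, adjusted p = 0.00296, edgeR). HNRNPDL, HNRNPU, HNRNPLL and HNRNPA0 did not pass the threshold, with log2 fold changes of 0.12 to 0.29 (adjusted p = 0.0525 to 0.111, edgeR). In CPM every silenced library of these genes lay above the controls. HNRNPC, HNRNPD, HNRNPK, HNRNPM and HNRNPA1 had log2 fold changes between -0.10 and 0.02, and their groups overlapped. Of these, HNRNPK was steady, with 12553 to 13996 counts, whereas HNRNPC ranged from 7554 to 11596 and HNRNPD from 2660 to 4412.

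Several members have processed pseudogenes, intronless copies near enough in sequence for reads to be shared. For HNRNPA1, 75.1% of the reads assigned to gene or copy lay in 75 copies. This share was 70.7% for LSM12, 57.1% for HNRNPA3, 39.2% for SNRPE, 11.3% for HNRNPC and at most 9.94% for the other members. When copies were added to their gene, an analysis chosen after the data were seen, SNRPE kept its call (log2 fold change 0.65 ± 0.09, adjusted p = 0.00158, edgeR). HNRNPA3 lost it, going from -0.26 (adjusted p = 0.0218) to -0.18 ± 0.06 (adjusted p = 0.0667). HNRNPA3 also shares 53.6% of its exon bases with NFE2L2 on the opposite strand, whose log2 fold change was 0.67 (adjusted p = 0.107). For HNRNPA1 the gene alone had 1949, 2393 and 2606 counts in si-NC and 2192, 2098 and 2488 in si-METTL16 samples, and the sum with its copies gave a log2 fold change of -0.16 ± 0.16 (adjusted p = 0.448). For LSM12 the sums were 701, 578 and 797 against 943, 671 and 1018 (log2 fold change 0.38 ± 0.15, adjusted p = 0.0895), so that the drop of the second library in each group was smaller in the sum than in the gene.

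**Figure D5:**
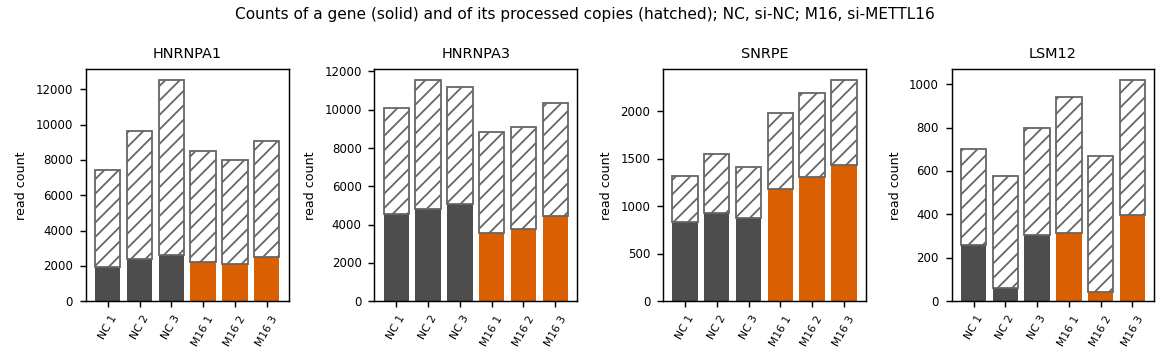
Read counts per library of HNRNPA1, HNRNPA3, SNRPE and LSM12 (solid bars, dark for si-NC and orange for si-METTL16) with the counts of their processed pseudogenes stacked on top (hatched). The copies exceed the gene in every library for HNRNPA1, HNRNPA3 and LSM12, and for SNRPE they are below the gene in each.

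Levels of different members were compared as CPM per kilobase of the MANE Select transcript, the single reference transcript chosen for each gene, with copies left out. In si-NC samples HNRNPA2B1 was highest, at 419 ± 29.9 (SD, n = 3), followed by HNRNPK at 278.8 ± 5.84, SNRPG at 268 ± 5.11 and SNRPB at 221 ± 8.80. The means of HNRNPK and SNRPG differed by less than the sum of their SDs. HNRNPH2 (182 ± 9.99) and HNRNPC (176 ± 34.6) could not be ordered by their spread. In si-METTL16 samples HNRNPA2B1 stood at 539 ± 7.72, SNRPG at 346 ± 16.7, SNRPB at 326 ± 6.52 and HNRNPK at 272 ± 6.81, so that SNRPB was above HNRNPK in place of below it. The 3 largest rises among called members started from different levels. HNRNPH3 went from 86.6 ± 0.74 to 177 ± 3.40, SNRPA1 from 18.9 ± 2.45 to 42.4 ± 4.42, and SRSF4 from 24.0 ± 0.70 to 45.1 ± 1.72 CPM per kilobase. SNRPD3 went from 28.5 ± 0.76 to 20.5 ± 0.77.

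Genes of the same pathway outside the symbol rule were taken from lists written from general knowledge. Of 55 other spliceosome proteins, 21 were higher and 8 lower, with a median log2 fold change of 0.09, against -0.0045 over all genes tested. The shares were 38.2% higher and 14.5% lower, against 18.4% and 17.5% of all genes tested. The 3 that at least doubled were DDX23, PPIH and PHF5A. DDX23, a helicase that acts when U6 takes the place of U1 at the 5' splice site, had 2191, 2467 and 2535 counts in si-NC and 4988, 4783 and 5545 in si-METTL16 samples (log2 fold change 1.13 ± 0.06, adjusted p = 9.39e-05, edgeR). PPIH, a cyclophilin bound to PRPF3 and PRPF4, had 458, 576 and 572 against 1095, 1068 and 1266 counts (1.13 ± 0.10 on the log2 scale, adjusted p = 0.000317). PHF5A, the small SF3B subunit that touches the branch site, had 361, 410 and 385 against 829, 751 and 864 counts (log2 fold change 1.12 ± 0.08, adjusted p = 0.00018). In all 3 genes every silenced library was above all controls.

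The smaller lists had calls in both directions. Among 38 tested splicing regulators of other families 6 were higher and 5 lower, with a median log2 fold change of 0.03. These shares, 15.8% and 13.2%, lay below the 18.4% and 17.5% of all genes tested. Among 20 genes of snRNP assembly 6 were higher and 2 lower (median 0.19), and among the 9 genes of SR protein kinases and nuclear import 4 were higher and 2 lower (median -0.06). CLNS1A, whose protein receives newly made Sm proteins for assembly, fell from 1509, 1925 and 1773 to 845, 973 and 874 counts (log2 fold change -0.90 ± 0.12, adjusted p = 0.00171, edgeR). SMN2 was among the assembly genes called higher, but its counts cannot be separated from those of its near-identical copy SMN1. Of 6 genes of U6 maturation, SART3, which recycles U6 into U4/U6, rose (0.48 ± 0.10), TUT1, which adds uridines to U6, fell (-0.75 ± 0.19), and SSB, which binds new U6, fell (-0.44 ± 0.06), with adjusted p = 0.0101, 0.0183 and 0.00116. Of 7 further minor spliceosome genes 1 was higher and 2 were lower. CLNS1A, SART3, TUT1 and SSB were picked for mention after their values were seen.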

How the data were processed

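RNA-seq of 3 si-NC and 3 si-METTL16 PANC-1 samples was used, grouped and numbered by title. For each gene the authors deposited an unnormalized read count and an FPKM. Within a gene the FPKM follows the count divided by the library total. How the length in its divisor was obtained is not given. The submitters' processing notes name HISAT2 2.0.4, StringTie 1.3.0 and GRCh38; the counting program, annotation release and use of strand are not given in the sources used here. Libraries came from total RNA with a SMARTER mRNA-Seq kit.

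Genes passing filterByExpr (minimum count 10, minimum total 15; 15089 genes) were compared with the quasi-likelihood test of edgeR 4.0.16 in R 4.3.3 after TMM scaling, calling genes at a Benjamini-Hochberg adjusted p under 0.05. The study's methods name limma; counts were tested with edgeR because raw counts were deposited, and limma 3.58.1 and DESeq2 1.42.0 were alternatives. Standard errors were derived from the estimate and its F value. The common biological coefficient of variation was 16.48%. The model includes counting error, and variation beyond it is covered only as far as the 3 replicates show it. In simulated counts with 200 changed genes the analysis was tested for sign and recovery. No 2 libraries agreed within sampling noise. Alternatives were the replicate block, each sample left out, no filter, DESeq2 size factors, the DESeq2 Wald test, limma on voom values and on log2(FPKM + 1) or log2(FPKM + 0.1) at a mean FPKM of at least 1, and copies added to their gene.

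Members and lists were chosen with earlier results of these data known. Genes named by rule were METTL16, the Sm core, LSM2 to LSM8, the 8 highest and 8 lowest called members with separate groups, in each role the called member of lowest p and that of highest FPKM, and list genes called with a change of 1 or more on the log2 scale in either direction; other names were added after their values were seen. Exon overlaps and transcript lengths come from GENCODE v44, of which 19 of 87 members share the deposited coordinates. Promoters come from RefSeq. Protein sequences were not used here, and 1 member is counted but not reported on its own.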

Additional observations from a re-analysis of the deposited data

How the results depend on the processing

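Over the 14 alternatives, 24 to 32 members were higher and 7 to 11 lower, against 29 and 9, and 24 of the 29 and 7 of the 9 kept their call in every alternative in which they were tested. The share of all genes called higher also moved, from 8.15% with no filter to 19.9% with limma on log2(FPKM + 1), against 18.4%. In either direction, 15.6% to 40.4% of all genes were called in these alternatives, against 35.9%. No member called in the main analysis changed sign. The lowest count of members called higher, 24, came without the third si-NC library, and without one library or another the counts were 24 to 31 higher and 7 to 9 lower. With single libraries left out, 14.2% to 15.3% of all genes were called higher. The calls lost in one alternative or more were those of PRPF40B, SF3A3, SF3A2, PRPF4, PRPF31, HNRNPL and HNRNPA3. Deviations from the group mean correlated by 0.025, 0.037 and 0.030 between same-numbered libraries and by -0.039 to 0.0083 between the others. With 3 libraries per group, values this small cannot tell whether the replicate number marks paired samples. The replicate block gave 31 members higher and 10 lower, LSM5 and LSM6 among them (adjusted p = 0.0417 and 0.0429). Of the other pathway genes 60 were called, and 49 to 62 over the alternatives. METTL16 fell in each, by 1.16 to 1.52 on the log2 scale. No scaling moved the median of all genes by as much as 0.1. Estimates near 0 changed sign, none past the threshold: LSM7 to -0.016 and -0.015 with limma on log2(FPKM + 0.1) and log2(FPKM + 1), and, with single libraries left out, LSM7 ranged from -0.056 to 0.048, LSM2 from -0.058 to 0.050 and LSM10 from -0.13 to 0.21. The cause was not tested. LSM11, PRPF40B, LSM6 and LSM12 had the lowest CPM of the tested members. Depth limits the first 3, whereas for LSM12 70.7% of the reads assigned to gene or copy lay in its copy.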

Other observations

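The deposited FPKM values placed members in another order than counts per kilobase of one transcript. The length implied by count and FPKM was more than 1.5 times the MANE Select transcript in 66 of 82 tested members, within 1.5 times in 15 and shorter in 1, with a median ratio of 2.65. For HNRNPU the implied length was 81528 bases, longer than the whole gene (chr1:244840638-244864560), so it is not the length of a gene model. The ratio was highest for HNRNPH1, at 13.7, and near 1 for HNRNPH2, at 0.968. On the FPKM scale HNRNPH1 averaged 5.95 and HNRNPH2 154 over the 6 samples, whereas per kilobase of MANE transcript their si-NC levels were 67.4 ± 5.35 and 182 ± 9.99 CPM (SD, n = 3). SNRPA1, with a ratio of 6.99, SRSF4 at 5.91 and HNRNPH3 at 5.17 were likewise lower on the FPKM scale than by transcript length. The comparison between groups within a gene does not depend on this length.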
